A study of Mus musculus with 11 samples.

Results

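Chaperonins are barrel-shaped machines that enclose an unfolded protein and use ATP to help it fold. The 10 genes described here encode the 2 chaperonins of the mouse cell. Tcp1, Cct2, Cct3, Cct4, Cct5, Cct6a, Cct7 and Cct8 encode the 8 subunits of the cytosolic chaperonin, called TRiC or CCT. Hspd1 encodes Hsp60, the chaperonin of the mitochondrial matrix, and Hspe1 encodes Hsp10, the lid that closes the Hsp60 barrel. They were picked by gene symbol, as rows of a list of 24319 symbols, and all 10 were found and passed the filter on low values that 11110 genes passed. The set was chosen with earlier results of these data known, so its counts beside those of all genes are a description.

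TRiC is built from rings in which each subunit holds a fixed place, and it folds actin, tubulin and many proteins with WD40 repeats. Hsp60 and Hsp10 fold proteins that have been imported into mitochondria. Cells that grow and divide need both machines, and dividing B cell precursors make much new protein.

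RNA was sequenced in 11 libraries from C57BL/6J mice, and values are FPKM (fragments per kilobase of transcript scaled to the mapped fragments of the library). The B-ALL group is leukemic cells, from the lymph node of each of 3 mice (686, 713 and 760) of genotype Ebf1+/- Pax5+/- with B cell acute lymphoblastic leukemia, at 2 libraries a mouse. Their Rag2 genotype is not given in the labels. The dHet proB cells (3 libraries) were Ebf1+/- Pax5+/- Rag2-/- and pre-leukemic, and were grown from c-Kit positive fetal liver cells on a feeder layer of OP9 stromal cells in IL-7, Flt3L and SCF. The wt proB cells (2 libraries) were Ebf1+/+ Pax5+/+ Rag2+/+ and were sorted from bone marrow as Fraction BC. Ebf1 and Pax5 encode transcription factors that set B cell identity. Tissue, culture and genotype therefore differ between the groups together, and their parts in any difference cannot be told apart. The labels do not give the ages of the mice, nor whether each dHet or wt library had its own animal or culture, and the p-values then measure only the spread between these samples. Library 3 of the dHet cells is numbered 3 in its title and 2 in its source name.

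Markers of the labelled cell type were present in each library. The summed FPKM of 10 pro-B genes was between 6211 and 8929 in B-ALL, between 8298 and 10538 in dHet cells and between 7177 and 7600 in wt cells, with none of the 10 at 0 in any group. The sum hides genes that were lower in B-ALL. Of the 10, 0 were called higher in B-ALL (limma, adjusted p below 0.05). Against dHet cells 3 were called lower, Rag1 (log2 change -1.14), Pax5 (-0.95) and Ebf1 (-0.83). Against wt cells 1 was, Ebf1 (-1.19). Of all 11110 genes tested, 1218 were called lower against dHet cells and 1112 against wt cells. Dntt ranged from 20.8 to 470 FPKM among the B-ALL libraries. FPKM values summed over all genes to between 578240 and 638953 per library in B-ALL, 505261 and 584543 in dHet and 520519 and 553798 in wt cells. The sums were thus mostly higher in B-ALL, and the read depth behind them is unknown.

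The promoters of these genes are shown because the members moved together. RefSeq promoter windows (GRCm38.p6, 250 bases before to 50 bases after a transcript start) were found for 9 of the 10 genes, in 12 windows, and Cct4 was the gene with none. Hspd1 and Hspe1 lie head to head on chromosome 1. The Hspe1 window and the window of the Hspd1 start 2 share 285 bases, read on opposite strands, so 1 sequence stands for both. The sequences printed are the windows that hold a match to the heat shock element core (GAANNTTC or TTCNNGAA, the letters that heat shock factors bind) or to the E-box (CACGTG, bound by MYC with MAX). Capitals mark those matches, and each line runs 5′ to 3′ on the gene's own strand. The windows are Hspe1 at chr1:55087898-55088197 (+), Hspd1 start 1 at chr1:55088194-55088493 (-), Cct2 start 2 at chr10:117063326-117063625 (-), Cct5 start 1 at chr15:31601797-31602096 (-) and Cct6a at chr5:129787106-129787405 (+).
Hspe1: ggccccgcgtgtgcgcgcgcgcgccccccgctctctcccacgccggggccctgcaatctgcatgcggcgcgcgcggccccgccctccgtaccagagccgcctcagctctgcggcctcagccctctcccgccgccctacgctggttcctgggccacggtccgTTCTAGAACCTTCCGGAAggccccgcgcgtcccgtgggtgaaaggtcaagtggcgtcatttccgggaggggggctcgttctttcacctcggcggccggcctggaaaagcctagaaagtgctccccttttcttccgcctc
Hspd1 start 1: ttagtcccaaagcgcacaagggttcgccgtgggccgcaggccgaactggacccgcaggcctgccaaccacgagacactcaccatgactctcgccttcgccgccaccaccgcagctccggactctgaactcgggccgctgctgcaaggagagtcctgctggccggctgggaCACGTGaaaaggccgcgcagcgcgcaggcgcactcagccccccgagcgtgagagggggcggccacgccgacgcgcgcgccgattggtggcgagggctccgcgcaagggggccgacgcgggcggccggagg
Cct2 start 2: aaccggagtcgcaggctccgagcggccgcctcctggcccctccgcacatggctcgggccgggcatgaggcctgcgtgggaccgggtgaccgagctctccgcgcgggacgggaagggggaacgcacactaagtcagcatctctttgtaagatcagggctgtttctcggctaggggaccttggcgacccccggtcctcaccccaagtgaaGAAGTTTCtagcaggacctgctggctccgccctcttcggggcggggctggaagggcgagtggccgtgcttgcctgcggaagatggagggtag
Cct5 start 1: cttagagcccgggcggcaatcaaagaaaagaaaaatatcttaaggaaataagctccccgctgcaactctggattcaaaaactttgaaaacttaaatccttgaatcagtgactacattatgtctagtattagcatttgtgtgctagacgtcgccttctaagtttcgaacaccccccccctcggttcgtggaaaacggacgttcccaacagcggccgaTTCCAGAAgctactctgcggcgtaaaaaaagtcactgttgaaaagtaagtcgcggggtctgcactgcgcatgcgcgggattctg
Cct6a: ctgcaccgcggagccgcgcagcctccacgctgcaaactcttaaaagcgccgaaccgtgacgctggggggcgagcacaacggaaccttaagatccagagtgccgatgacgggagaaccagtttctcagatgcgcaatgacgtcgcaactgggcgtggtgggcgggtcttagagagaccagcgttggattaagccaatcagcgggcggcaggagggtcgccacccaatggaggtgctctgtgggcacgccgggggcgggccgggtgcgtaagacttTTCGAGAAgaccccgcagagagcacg

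In the Hspe1 window 3 overlapping heat shock element cores began at -89, -84 and -79 bases from the start. In the Hspd1 start 2 window the same letters began at -144, -139 and -134. The E-box of Hspd1 start 1 began at -80. Cct2 start 2, Cct5 start 1 and Cct6a each held 1 heat shock element core, at -42, -34 and +25. The core was thus in 5 of 12 windows, against 15.1% of 32851 windows of the same length in the mouse genome. Of these 5, the windows of Hspe1 and Hspd1 start 2 hold the same bases. By gene it was in 5 of 9, for which no share over all genes was counted. The E-box was in 1 of 12 windows, against 7.2% of all windows.

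Among more common promoter letters, the GC box (GGGCGG or CCGCCC) was in 11 of 12 windows and in all 9 genes with a window, against 35.7% of all windows. The CCAAT box (CCAAT or ATTGG) was in 5 of 12, against 37.4%. No window held the CRE (TGACGTCA), which 1.8% of all windows hold. These windows are GC-rich, with between 47.3% and 73.3% G and C, and overlapping windows of Hspd1 and Hspe1 count the same bases again. The map of motif matches shows where they lie. A match describes letters and was not tested as a binding site in these data.

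**Figure D1:**
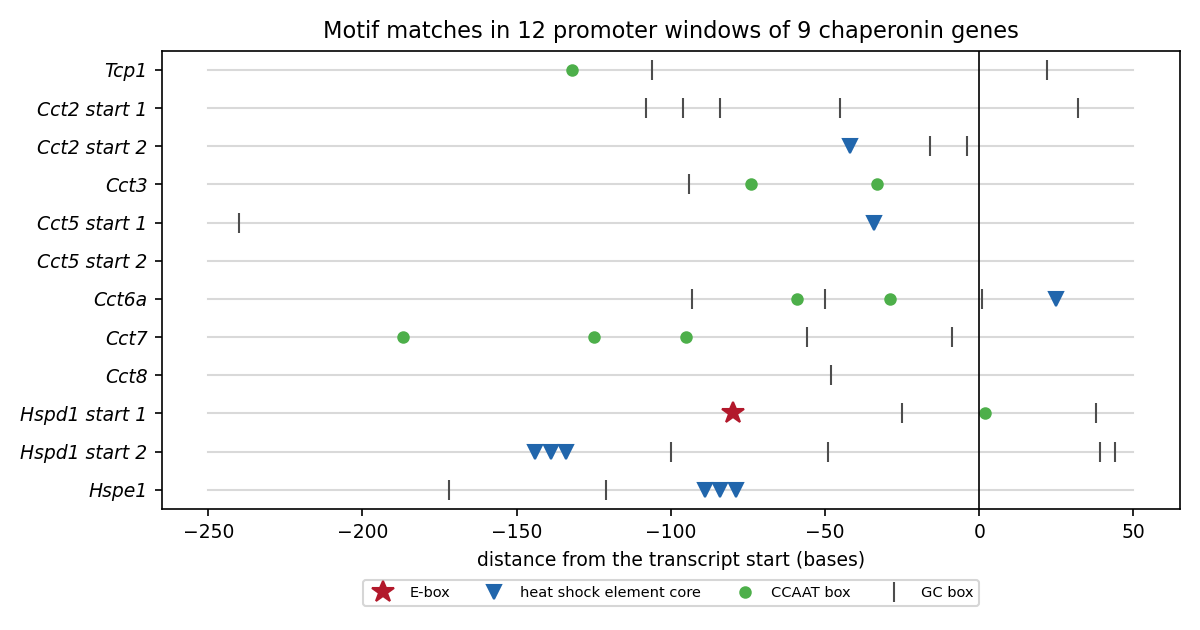
Each row is 1 of 12 promoter windows of 9 chaperonin genes, and the horizontal axis is the distance from the transcript start in bases. Symbols mark motif matches on either strand, and the 3 heat shock element cores of Hspe1 and of Hspd1 start 2 are the same bases read from opposite strands.

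The chaperonin transcripts were abundant in every library. The 10 genes lay between the 87.2th and the 99.3th percentile of the genes above 0 in the same library, Cct3 in a dHet library at the low end and Cct5 in a B-ALL library at the high end. The 10 together made up 0.403% to 0.542% of summed FPKM in the B-ALL libraries, 0.234% to 0.298% in the dHet libraries and 0.26% to 0.30% in the wt libraries. The 2 B-ALL libraries with the lowest share were both from mouse 713, and they were still above each proB library.

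Leukemic cells were first compared with normal proB cells. Of the 10 genes, 7 rose in B-ALL over wt proB cells and none fell (limma, adjusted p below 0.05). The 7 were Cct3, Cct5, Cct6a, Cct7, Cct8, Hspd1 and Hspe1. Across all genes tested, 8.15% were called higher, and 1112 of 11110 were called lower. In all 10 genes the lowest B-ALL mouse was above the higher wt library, which was so of 28.1% of all genes. The median log2 change of the 10 was 1.00, against -0.02 over all genes.

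The comparison of leukemic with pre-leukemic cells of the same Ebf1 and Pax5 genotype used the same B-ALL mice. There 8 of the 10 rose and none fell, where 14.5% of all genes were called higher and 1218 of 11110 lower. They were the 7 named above and Tcp1. The same 8 had every B-ALL mouse above every dHet library, as had 23.2% of all genes. The median log2 change of the 10 was 1.07, against 0.04 over all genes.

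**Figure D2:**
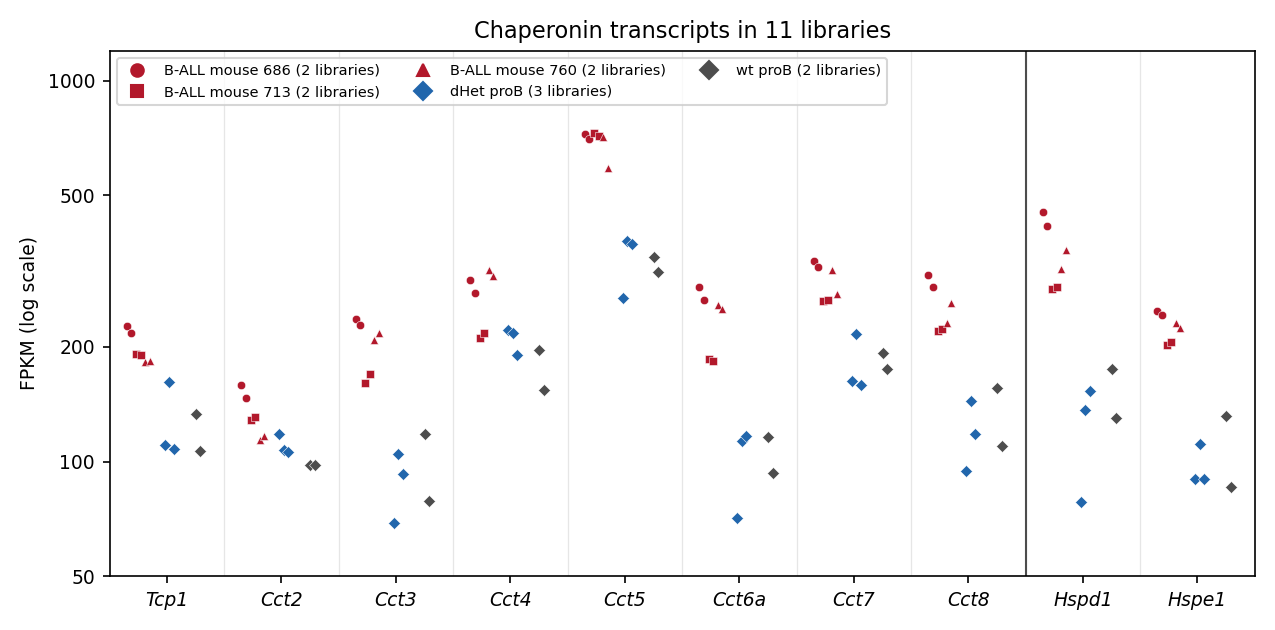
FPKM on a log axis for the 10 chaperonin genes, with 1 point per library. Red symbols are the 6 B-ALL libraries (a shape for each mouse), blue diamonds the 3 dHet and grey diamonds the 2 wt proB libraries, and the red points lie above the others except in Cct2 and Cct4, where they reach down among the dHet points.

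Hspd1, the mitochondrial chaperonin, had the largest change of the 10 in both comparisons. Its FPKM was 434, 286 and 340 in mice 686, 713 and 760 (each the mean of 2 libraries), 78.3, 137 and 153 in dHet libraries 1 to 3, and 175 and 131 in wt libraries 1 and 2. Every B-ALL mouse was thus above every proB library, and dHet library 1 stood lowest. On the log2(FPKM + 1) scale it rose by 1.20 over wt (SE 0.32, adjusted p = 0.0360, limma) and by 1.55 over dHet (SE 0.28, adjusted p = 0.00831). As folds of FPKM + 1 these are 2.29 and 2.93, with 95% intervals of 1.38 to 3.79 and 1.87 to 4.60.

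Hspe1, its lid, was at 246, 204 and 227 FPKM in the 3 mice, at 90.1, 111 and 90.1 in the dHet libraries and at 132 and 85.6 in the wt libraries. Every B-ALL mouse was above every proB library, while the dHet values lay within the range of the wt values. Its log2 level rose by 1.08 over wt (SE 0.21, adjusted p = 0.0126, limma) and by 1.21 over dHet (SE 0.19, adjusted p = 0.00518). The ratio of Hspd1 to Hspe1 FPKM was 1.39 to 1.82 in B-ALL, 0.869 to 1.70 in dHet and 1.33 to 1.53 in wt libraries. These ranges overlapped.

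Among the TRiC subunits, Cct5 (the epsilon subunit) was the most abundant, with 714, 722 and 651 FPKM in the mice, 269, 380 and 372 in dHet and 346 and 316 in wt libraries. It rose by 1.07 over wt (SE 0.20, adjusted p = 0.00987, limma) and by 1.04 over dHet (SE 0.18, adjusted p = 0.00652) on the log2 scale. All B-ALL mice stood well clear of the proB libraries, and mouse 760 was the lowest of them.

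Cct6a, the zeta subunit, had the largest change of the TRiC subunits. It was at 276, 185 and 255 FPKM in the mice, at 71.2, 113 and 117 in dHet and at 116 and 93.2 in wt libraries. Mouse 713 was the lowest of the B-ALL mice and still above all proB libraries. The log2 change was 1.17 over wt (SE 0.27, adjusted p = 0.0227, limma) and 1.25 over dHet (SE 0.24, adjusted p = 0.0100).

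Cct3, the gamma subunit, was at 233, 166 and 213 FPKM in the mice, at 69.2, 105 and 92.6 in dHet and at 118 and 78.7 in wt libraries. Cct8, the theta subunit, was at 298, 222 and 246 in the mice, at 94.6, 144 and 118 in dHet and at 156 and 110 in wt libraries. In both genes the order of the mice was 686, 760, 713, and no group of proB cells reached the B-ALL mice. Cct3 rose by 1.06 over wt (adjusted p = 0.0270, limma) and 1.19 over dHet (adjusted p = 0.00985), and Cct8 by 0.95 (adjusted p = 0.0311) and 1.11 (adjusted p = 0.0101).

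Cct7, the eta subunit, and Tcp1, the alpha subunit, changed by less. Cct7 was at 330, 265 and 297 FPKM in the mice, at 163, 217 and 159 in dHet and at 193 and 175 in wt libraries. It rose by 0.68 over wt (SE 0.19, adjusted p = 0.0413, limma) and by 0.73 over dHet (SE 0.17, adjusted p = 0.0181). Tcp1 was at 222, 191 and 183 in the mice, at 110.5, 162 and 108 in dHet and at 134 and 107 in wt libraries. Its log2 change was 0.72 over wt (SE 0.22, adjusted p = 0.0534, limma), which missed the threshold, and it rose by 0.67 over dHet (SE 0.19, adjusted p = 0.0405).

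Cct2 and Cct4, the beta and delta subunits, passed neither test. Cct2 was at 153, 130 and 115 FPKM in the mice, at 118, 107 and 106 in dHet and at 98.1 and 97.7 in wt libraries. Mouse 760 was below dHet library 1. The log2 change of Cct2 was 0.42 over wt (95% interval 0.06 to 0.79, adjusted p = 0.0958, limma) and 0.26 over dHet (-0.07 to 0.58, adjusted p = 0.211).

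Cct4 was at 289, 214 and 313 FPKM in the mice, at 222, 218 and 190 in dHet and at 196 and 154 in wt libraries. Mouse 713 was below 2 of the 3 dHet libraries. Its log2 change was 0.63 over wt (95% interval 0.15 to 1.10, adjusted p = 0.0715, limma) and 0.36 over dHet (-0.07 to 0.78, adjusted p = 0.190). The intervals over wt stay above 0 and those over dHet do not.

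**Figure D3:**
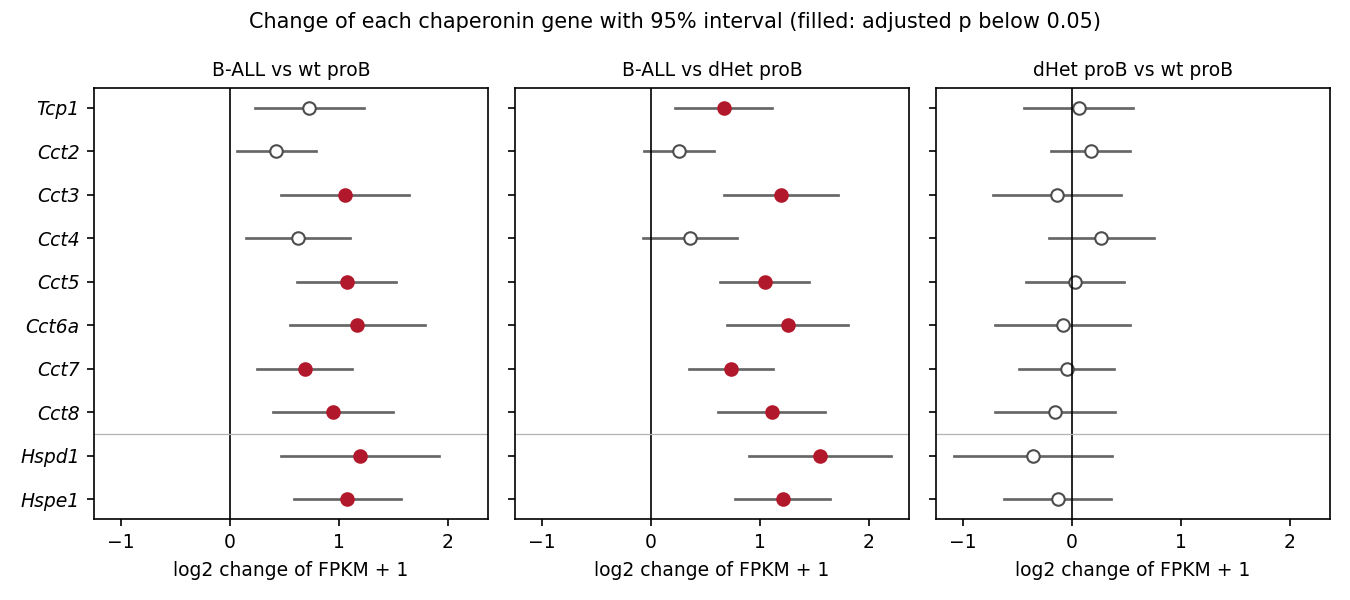
Log2 change of FPKM + 1 for each chaperonin gene in 3 comparisons, with the 95% interval as a line. Filled circles have an adjusted p below 0.05, which holds for 7 genes against wt, 8 against dHet and 0 between dHet and wt cells.

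The calls against wt cells rested on 2 wt libraries. Without wt library 2, 0 of the 10 were called, and without wt library 1 only 1 was, Hspe1. Over all genes, calls in either direction fell from 2017 to 195 and 275 in these settings. Without mouse 686 or without mouse 760, 2 of the 10 were called, with 1055 and 1594 of all genes. Rescaling each library to the same sum (TPM) left 4 called and quantile normalization 2, with 2048 and 1952 of all genes. The log2 change of each of the 10 remained above 0 in all 27 other settings tried, in both B-ALL comparisons. Settings that changed only the filter or the variance model leave the log2 change as it was, so they could not turn its sign. Against wt cells the groups did not overlap in any of the 10, so leaving out a mouse or a wt library could not turn it either. Against dHet cells, Cct3, Cct5, Cct6a, Cct8, Hspd1 and Hspe1 kept their call in all 27. Tcp1 lost its call in 13, among them TPM and each setting that left out a whole mouse, and Cct7 in 2, without dHet library 1 and without mouse 686.

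Between the pre-leukemic dHet cells and normal wt proB cells, no chaperonin gene was called. Log2 changes ran from -0.36 for Hspd1 to 0.27 for Cct4, with adjusted p between 0.512 and 0.965 (limma), and 0 of 10 had an unadjusted p below 0.05. Of all genes, 2.18% were called higher and 6.50% lower. The 95% interval for Hspd1 was -1.08 to 0.37 and that for Cct5 -0.43 to 0.48, so changes within these intervals could not be told from no change with 3 and 2 libraries. Only Cct2 had groups that did not overlap, with the dHet libraries higher, which was so of 18.9% of all genes.

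The order of the groups was thus B-ALL first for all 10 genes. Behind it, the ranges of the dHet and wt libraries overlapped for 9 genes, and for Cct2 the dHet libraries were higher without a call. Within the dHet group, library 1 was lowest for 6 of the 10 genes (Cct3, Cct5, Cct6a, Cct8, Hspd1 and Hspe1) and highest for Cct2 and Cct4. Within the wt group, library 1 was above library 2 for all 10. The widest spread of a proB group was that of Hspd1 in dHet cells, where the highest library was 1.96 times the lowest.

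Among the B-ALL mice, no chaperonin gene was called different by the F test over mice (limma, 11 libraries in 5 groups), while 22.3% of 11293 genes were. Its spread is that between the 2 libraries of a mouse, pooled with that among the dHet and among the wt libraries. It is not a spread between animals with leukemia, so the p-values do not reach beyond these mice. Cct4 came nearest (adjusted p = 0.0538), followed by Cct2 (adjusted p = 0.0700), and these 2 had an unadjusted p below 0.05. With the spread taken from the 6 B-ALL libraries alone, and so only between the 2 libraries of a mouse, 8 of 10 were called, where 45.9% of all genes were. With TPM 1 was, where 20.4% of all genes were. Library 1 of mouse 686 was the highest of all 11 for 8 genes, all but Cct4 and Cct5. For Cct3, Cct6a, Cct7, Cct8, Hspd1 and Hspe1 the order of mouse means was 686, 760, 713.

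The highest mouse mean was 1.11 times the lowest for Cct5 and 1.52 times for Hspd1, with the other 8 in between. The ratio of library 1 to library 2 of the same mouse lay between 0.885 (Cct8, mouse 760) and 1.20 (Cct5, mouse 760). For Cct5 the 2 libraries of mouse 760 thus differed by more than the mouse means did.

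TRiC subunits meet in equal numbers in the finished ring, so the make-up of their transcripts was compared within each library. FPKM is per transcript length, which allows levels of different genes to be compared. The 8 subunits summed to between 2091 and 2580 FPKM in B-ALL, 1117 and 1446 in dHet and 1131 and 1357 in wt libraries. Cct5 was the highest subunit in all 11 libraries, at 1.21 to 2.76 times the level of the next. The lowest was Cct2 in the 6 B-ALL libraries and in wt library 1, and Cct3 in the 3 dHet libraries and in wt library 2.

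Cct2 made up 4.86% to 6.25% of the TRiC sum in B-ALL, 7.40% to 10.6% in dHet and 7.23% to 8.64% in wt libraries, so its share was lower in every B-ALL library. The share of Cct4 was 10.1% to 13.9% in B-ALL, 15.1% to 19.9% in dHet and 13.6% to 14.5% in wt libraries. It was below dHet throughout and overlapped with wt. The share of Cct6a was 8.77% to 11.4% in B-ALL, above its range of 8.24% to 8.57% in wt and overlapping its range of 6.37% to 9.27% in dHet libraries. Shares of one sum are not independent of each other, and they were not tested.

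Set against the mean log2 level of the 8 subunits in the same library, Hspd1 was higher by 0.36 in B-ALL than in wt and by 0.73 than in dHet cells, with no overlap of mice and libraries in either. Hspe1 was higher by 0.24 and 0.38, again with no overlap, though mouse 686 (-0.22) lay close to wt library 1 (-0.25). How many of all genes show no overlap on this scale was not counted, and these differences were not tested. This measure does not change with the scaling of a library, apart from the added 1.

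**Figure D4:**
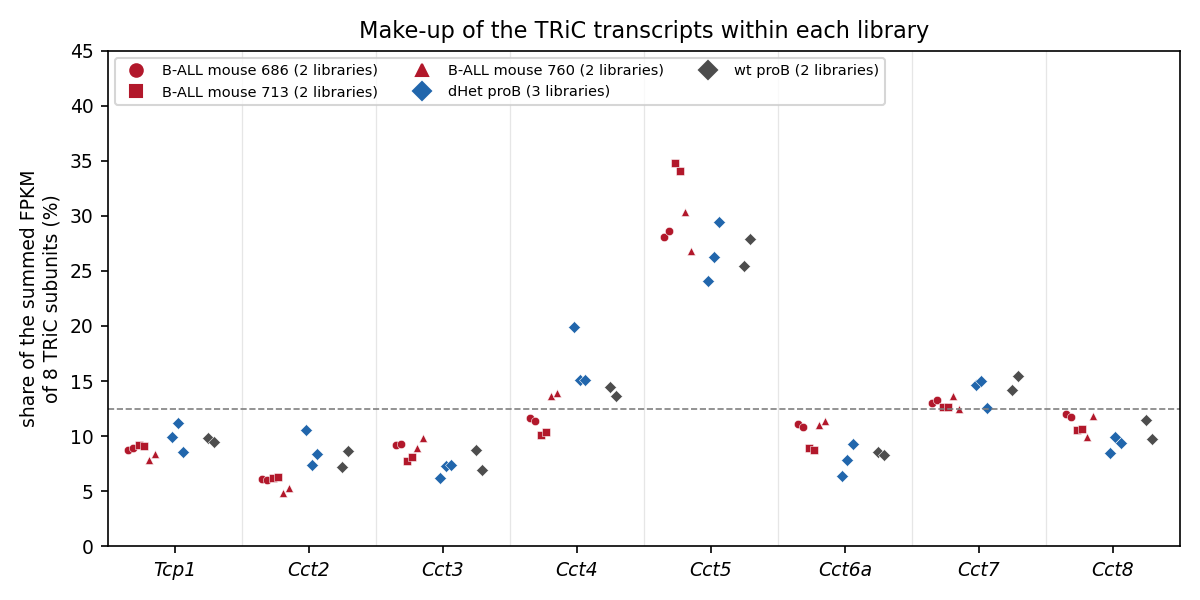
Share of each subunit in the summed FPKM of the 8 TRiC subunits, in percent, with 1 point per library and the same symbols as in the plot of FPKM by library. The dashed line is an equal share, and Cct5 lies above it in all 11 libraries while Cct2 lies below it in all 11.

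Over the 8 units (3 mice and 5 proB libraries), the log2 levels of the 10 genes moved together. Pearson's r over the 45 pairs was between 0.63 and 0.99, with a median of 0.92. These points share their libraries and the difference between leukemic and proB cells, so the values are a description. Outside the 10, the genes most like the mean of the TRiC subunits among 6303 genes were Sf3b3 (a spliceosome subunit), Mrpl12 (a mitochondrial ribosomal protein), Phb2 (a prohibitin), Mrps5 (another mitochondrial ribosomal protein), Enoph1, Ipo7 (an importin), Mecr and Ldha (lactate dehydrogenase A), with r from 0.985 to 0.992. Those most like the mean of Hspd1 and Hspe1 were Mrpl12, Eef1d, Tbl3, Clpp (a mitochondrial protease), Sf3b3, Prmt5, Ddx27 and Cnbp, with r from 0.987 to 0.994.

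Prefoldin hands actin and tubulin chains to TRiC. Of its 6 subunit genes 0 were called in B-ALL against wt cells (0 at an unadjusted p below 0.05, limma), with a median log2 change of 0.29. Against dHet cells Pfdn6 rose by 0.75 (adjusted p = 0.0350, limma) and Vbp1 fell by 0.71 (adjusted p = 0.0235). Pfdn6 was at 208 ± 18.7 FPKM in B-ALL (SD, n = 3) and 127 ± 39.2 in dHet cells (n = 3), and Vbp1 at 87.2 ± 3.98 and 143 ± 18.2. The phosducin-like TRiC cofactors gave 0 calls of 3 tested in each comparison by limma, with 0 at an unadjusted p below 0.05 against wt and 1, Pdcl, against dHet. The chaperonin-like genes Mkks, Bbs10 and Bbs12, which work at the primary cilium, gave 0 calls of 3, with 1 (Mkks, against wt) at an unadjusted p below 0.05.

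Of 24 genes for proteins that TRiC folds, 1 rose over wt (Tuba4a, an alpha tubulin, by 2.13, adjusted p = 0.0107, limma) and none fell. Against dHet cells 3 rose and 1 fell. Tuba4a rose by 1.80, Actg1 (gamma actin) by 1.19 and Wdr5 (a WD40 protein of histone methylation complexes) by 0.77, and Tubb2b (a beta tubulin) fell by 2.0. The median of the 24 was 0.01 over wt and 0.13 over dHet, beside 0.84 and 0.89 for the 8 TRiC genes.

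Of 17 other mitochondrial chaperone and protease genes, 9 rose over wt and 10 over dHet cells, and none fell. Hspa9 (mortalin, the mitochondrial Hsp70) rose by 1.61 (SE 0.33, adjusted p = 0.0143, limma) over wt and by 1.65 (SE 0.29, adjusted p = 0.00770) over dHet. It was at 223 ± 57.7 FPKM in B-ALL (SD, n = 3), 71.9 ± 24.2 in dHet (n = 3) and 71.1 ± 7.49 in wt cells (n = 2). Phb (prohibitin) rose by 1.21 and 1.42, Htra2 (a protease) by 0.99 over wt, and Trap1 (the mitochondrial Hsp90) by 1.13 over dHet.

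Genes of the import machinery, which threads proteins through the mitochondrial membranes, gave 6 higher and 1 lower of 21 over wt, and 9 higher and 1 lower over dHet. Tomm5 rose by 1.17 and 1.38, Tomm40 (the outer membrane channel) by 1.05 and Timm23 (an inner membrane channel) by 0.85 over wt. Timm8a1 rose by 1.56 and Timm10 by 1.37 over dHet. Timm17b fell by 0.77 over wt and by 0.90 over dHet.

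Of 21 cytosolic Hsp70 and Hsp90 chaperone genes tested, 1 rose (St13, an Hsp70 cofactor, by 0.55) and 2 fell over wt, and 8 rose over dHet, led by Hsph1 (an Hsp110, by 1.28), Fkbp4 (by 1.16) and Hspa8 (by 1.00). The 2 that fell over wt were Hspa1a (the heat-inducible Hsp70), which fell by 3.95, and Dnajc7, which fell by 1.03. The medians of the 21 were 0.49 and 0.47, and 12 and 13 genes had an unadjusted p below 0.05, so the counts of calls differ more than these values do. Hspa1a was at 14.7 and 15.8 FPKM in the wt libraries and below 1 in every other library.

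Endoplasmic reticulum chaperones gave 4 higher and 1 lower of 15 over wt, and 13 higher over dHet. Canx (calnexin) rose by 0.99, Pdia6 by 0.95 and Pdia3 by 0.88 over wt, where Dnajb9 fell by 2.04. Calr (calreticulin) rose by 1.61, Hspa5 (BiP) by 1.57 and Hyou1 by 1.56 over dHet. The difference between the 2 comparisons was not tested, and they share the B-ALL mice.

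Between dHet and wt cells, none of these folding genes rose. Hspa1a (-3.44), Dnajc7 (-1.05) and Dnajb9 (-2.10) fell, and the mitochondrial lists had 0 calls of 17 and of 21 (1 and 0 at an unadjusted p below 0.05, limma).

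**Figure D5:**
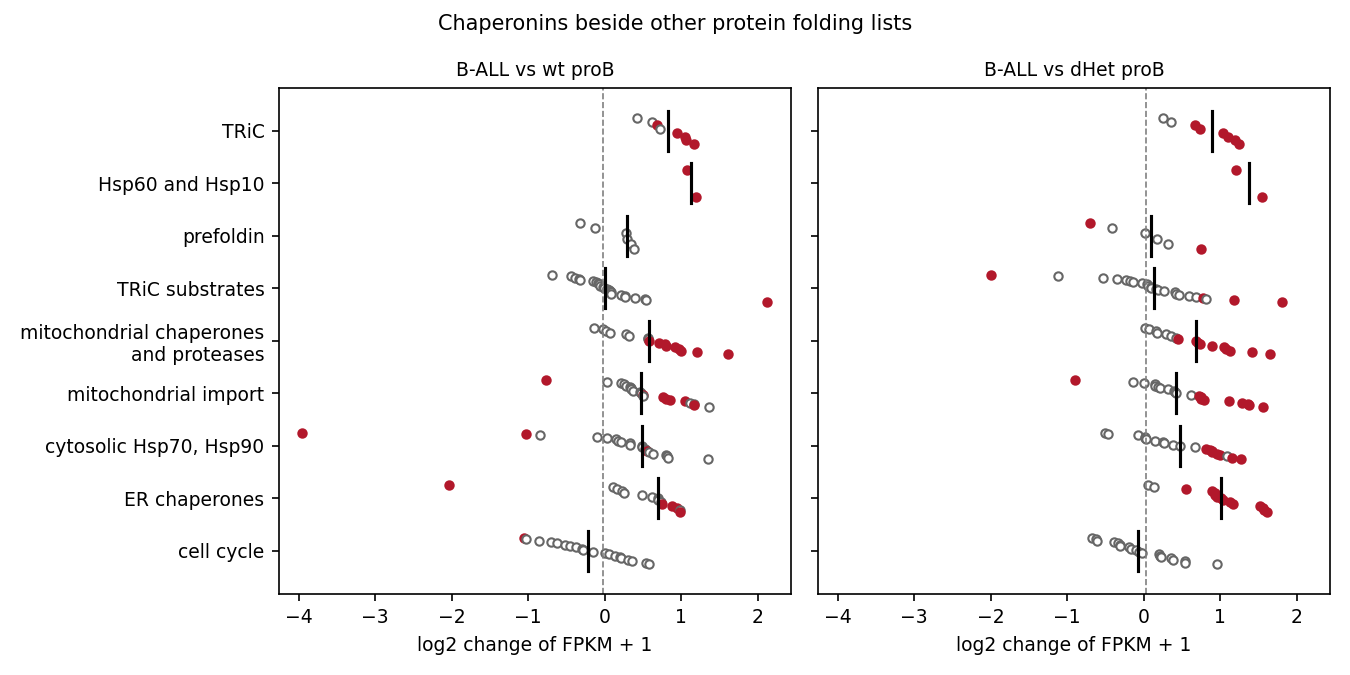
Log2 change of FPKM + 1 for the tested genes of 9 lists, B-ALL against wt proB (left) and against dHet proB cells (right), with 1 circle per gene, filled where the adjusted p is below 0.05. Black bars are list medians and the dashed line is the median of all tested genes, which the prefoldin and TRiC substrate medians lie closer to than the chaperonin medians do.

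Genes that regulate chaperones moved in mixed directions. Of 6, Hspbp1 (an Hsp70 regulator) rose by 1.07 over wt and 1.34 over dHet, and Hsf1, the main heat shock factor, rose by 0.83 over dHet (adjusted p = 0.0124, limma) with 0.22 over wt (adjusted p = 0.444). Ddit3 fell by 2.28 and 1.36, Atf4 by 1.06 over wt and Atf5 by 0.73 over dHet. Of 20 cell cycle genes 0 rose in either B-ALL comparison (limma) and 1, Cenpf, fell by 1.06 over wt. Against dHet cells 2 had an unadjusted p below 0.05. The 20 summed to 3083, 5134 and 1463 FPKM in dHet libraries 1 to 3, a wider range than the 2566 to 3365 of the B-ALL libraries. Mki67, a marker of dividing cells, had log2 changes of -0.86 over wt (adjusted p = 0.0855) and -0.61 over dHet (adjusted p = 0.135).

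Myc, which encodes the transcription factor that binds the E-box with MAX, was at 431, 206 and 389 FPKM in mice 686, 713 and 760 and at 82.5 and 68.4 in wt libraries. In dHet libraries 1 to 3 it was at 9.39, 42.3 and 290. Its log2 changes of 2.10 over wt (adjusted p = 0.229, limma) and 2.68 over dHet (adjusted p = 0.0886) did not pass. Library 3 of the dHet cells was above mouse 713 in Myc. Its TRiC sum was 1263, with 2091 in the lowest B-ALL library, and its Hspd1 level was 153, with 286 in mouse 713. These are values of a single library, and a part of Myc in the chaperonin levels was not tested.

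Marker lists of other cells also moved with the groups. Summed FPKM of 14 myeloid genes was 31.8 to 279 in B-ALL, 15.6 to 79.6 in dHet and 541 to 563 in wt libraries. Of 13 myeloid genes tested, 8 were called lower and 0 higher in B-ALL over wt cells (limma). Fcgr3 went against the sum, at 131 and 142 FPKM in mouse 713 and 4.71 and 3.84 in wt libraries. Over dHet cells 1, Csf1r (log2 change 2.23), was called higher and 0 lower. Summed FPKM of 7 plasmacytoid dendritic cell genes was 278 to 2503 in B-ALL, 905 to 980 in dHet and 1997 to 2572 in wt libraries. Most of that sum in mouse 713 was Ly6d, a gene that B cell progenitors also express, at 2196 and 2123 FPKM. The more specific Siglech was at 77.3 and 132 in the wt libraries, at 1.65 or less in B-ALL and at 0 in dHet libraries, and Klk1 was at 0 in all B-ALL and dHet libraries. That of 11 T cell genes was 43.7 to 217, 13.9 to 28 and 53.9 to 63.8, with Cd3e, Cd4, Cd8a and Cd8b1 at 0 in all dHet libraries. Among the B-ALL mice, 760 had the highest T cell sum and the lowest myeloid sum. Most of the T cell sum in mouse 760 was Lat, at 200 and 185 FPKM. Cd3e, a defining T cell gene, was lower in the libraries of mouse 760 (1.18 and 1.46 FPKM) than in those of 686 and 713 (4.03 to 5.41). Of 10 T cell genes tested, 7 were called higher and 0 lower in B-ALL over dHet cells (limma). Over wt cells 3 (Cd3e, Cd3g and Cd3d) were called higher and 1, Cd4, lower.

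The 9 red cell and megakaryocyte genes summed to 8.16 to 502 FPKM in B-ALL, highest in mouse 713, to 0.713 to 1.12 in dHet and to 10.1 to 31.5 in wt libraries. Hba-a1, an alpha globin, was called higher in B-ALL than in dHet cells (adjusted p = 0.0141, limma), in which it is listed at 0. The 7 NK cell genes summed to 4.30 to 23.5, 0.195 to 2.14 and 13.6 to 14.5. Jchain, of the plasma cell list, rose by 6.40 over dHet cells (adjusted p = 0.00194, limma) and was at 91.2 and 212 FPKM in wt libraries. Other genes of that list went the other way. Of 5 tested, 1, Jchain, was called higher over dHet cells and 1, Irf4 (log2 change -1.39), lower. Over wt cells 1, Mzb1 (0.96), was called higher and 2, Irf4 (-2.66) and Sdc1 (-1.94), lower.

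Of 13 genes induced when tissue is dissociated, 13 fell in B-ALL against wt cells and 3 against dHet cells. Of all 11110 genes tested, 1112 and 1218 were called lower in these comparisons. In dHet against wt cells 11 of the 13 fell, where 6.50% of all genes were called lower. The 13 genes summed to 3006 and 3877 FPKM in the wt libraries, 493 to 712 in B-ALL and 631 to 1160 in dHet libraries. The part of these other cells and of handling in the chaperonin levels was not tested. In bulk RNA, more cells of a type and more RNA per cell cannot be told apart.

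Some reads of these genes may belong elsewhere. In the GRCm38 annotation, exons of Tcp1, Cct6a, Cct7 and Cct8 overlap exons of a neighbour on the other strand, and so do those of Hspd1 and Hspe1, by 112 bases. The sources used here do not say whether quantification used strand. The largest overlap with 1 neighbour was that of Cct6a, where 12.49% of exonic bases lie within Psph. Psph was at 38.7 ± 4.80 FPKM in B-ALL (SD, n = 3), and rose by 0.76 over wt (adjusted p = 0.0315, limma) and by 0.62 over dHet (adjusted p = 0.0350), at levels well under those of Cct6a.

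Of the 50-base words in Hspd1 transcripts, 42.1% also occur in transcripts of other genes, and of those in Hspe1 transcripts 44.8%. For Tcp1 the share was 20.1% and for Cct6a 16.8%. The partners of Hspd1 and Hspe1 were 10 and 7 genes, pseudogenes among them, of which 1 each (Hspe1 and Hspd1) has a row in the tables. The levels of Hspd1 and Hspe1 are therefore less certain than those of Cct2 and Cct5, in which 0% of words were shared.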

How the data were processed

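The deposited files hold 1 FPKM value per gene symbol and library, which the authors made on mm9. The submitters' processing notes name Cuffnorm 2.2.1, Cuffdiff, Cufflinks 2.2.1, STAR 2.5.3a and bcl2fastq (0.3.1 and 2.20.0.422), with no order. Libraries were made from total RNA (RNeasy Mini Kit) with the NEB E6420 kit, per the labels' protocols. FPKM is scaled to each library, so a change in a few very abundant genes moves all others, and read depth is unknown.

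FPKM was put on a log2 scale after adding 1, and the 2 libraries of a B-ALL mouse were averaged, which gave 8 units. A gene was tested if 2 or more units reached 1 FPKM. Tests used limma 3.58.1 (R 4.3.3, empirical Bayes with a mean-variance trend, all 3 groups in 1 fit, two-sided), with Benjamini-Hochberg adjustment over all 11110 genes and a threshold of 0.05. The F test over mice used the 11 libraries. The fit was tested on simulated data. The members and gene lists were chosen with earlier results of these data known. All 10 members are named, up to 3 genes called per list, direction and comparison, and the 8 non-members most like each chaperonin by r among genes with a mean of 10 FPKM or more. Members singled out beyond that were chosen after their values were seen. Lists are described by counts and medians, with no set test. Promoter windows come from RefSeq, and overlaps and shared words from GENCODE transcripts of GRCm38, so they were read in another build than the FPKM values. Alternatives changed pseudocount, filter, scaling, variance model, handling of the libraries of a mouse and the samples included.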

Additional observations from a re-analysis of the deposited data

How the results depend on the processing

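The log2 changes of the 10 chaperonin genes in both B-ALL comparisons were above 0 in all 27 alternatives, many of which could not turn the sign. Against wt cells the count called was 7, 4 with no filter on low values, 4 with TPM and 2 with quantile normalization, and between 0 and 8 when a library or a mouse was left out. Against dHet cells the count was 8 and between 6 and 8 with samples left out. For all genes, called counts with samples left out ran from 195 to 2460 against wt cells (2017 with all, 195 without wt library 2), from 1393 to 2965 against dHet cells (2832 with all, 1393 without dHet library 1) and from 76 to 1251 between dHet and wt cells (964 with all, 76 without wt library 1). The last was 566 with a minimum of 5 FPKM. Among the genes called in either direction, the share that was higher was 44.9% against wt cells, 32.5% with no filter and 25.0% with TPM. Against dHet cells it was 57.0%, 39.1% with TPM and 46.5% with quantile normalization, and between dHet and wt cells 25.1%, and 41.8% with quantile normalization. TPM moved the median of all genes by -0.19 against wt and by -0.16 against dHet cells. Over mice, TPM called 1 chaperonin gene and the 6 B-ALL libraries alone called 8, with 5181 genes of all. Leaving out a wt library or a mouse leaves fewer units; otherwise the cause was not tested.

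Between dHet and wt cells the changes were near 0 and several turned sign. The log2 change of Cct5 was -0.039 with quantile normalization, and that of Cct7 was 0.025 with median centring. With samples left out, values ran from -0.13 to 0.22 for Tcp1, -0.43 to 0.15 for Cct3, -0.063 to 0.19 for Cct5, -0.24 to 0.14 for Cct6a, -0.19 to 0.032 for Cct7, -0.41 to 0.091 for Cct8 and -0.44 to 0.17 for Hspe1. None of these was called. Replicate numbers are shared between groups. The differences between libraries 1 and 2 correlated between groups with r from -0.13 to 0.64, above 0.1 in 4 of 10 pairs of groups. Between B-ALL mice r was 0.64 (686 and 713), 0.21 (713 and 760) and 0.13 (686 and 760), so part of that difference was shared there. Pairs with dHet or wt cells had r from -0.13 to 0.11, and the numbers were not taken as pairs over all groups. With the replicate block, 8 chaperonin genes were called against wt, 7 against dHet and 0 between dHet and wt cells, with 2333, 2402 and 916 of all genes, and Cct5 was at -0.047 and Cct7 at 0.032 between dHet and wt cells. With no read counts, the precision of low values cannot be given.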
